A study of Homo sapiens with 6 samples.

Results

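Genes of the WNT pathway were followed in TFK1 cells, a line from a human cholangiocarcinoma (cancer of the bile ducts), in which STUB1 was overexpressed. STUB1 is a chaperone-dependent E3 ubiquitin ligase. The members were chosen by symbol: WNT ligands, frizzled (FZD) receptors, SFRP and DKK inhibitors, PORCN, LRP5, LRP6, ROR1, ROR2, WIF1, RSPO3, LGR4, ZNRF3, APC, AXIN1, AXIN2, GSK3B, the TCF and LEF1 factors, NKD1 and NKD2. Of 23569 genes with values, 53 were members. No row was listed under the symbols WNT1, WNT8A and WNT16.

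RNA-seq compared 3 libraries of negative control cells (oeNC) with 3 libraries of STUB1-overexpressing cells (oeSTUB1), to find the transcripts that change with STUB1. The overexpressing cells were made by lentiviral transduction of the STUB1 coding sequence and puromycin selection, so that a group is a selected population, and no further treatment is labelled in either group. The labels do not say whether the libraries of a group came from separate cultures, and p-values measure the spread between these libraries, which may be technical.

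WNT ligands are lipid-modified by the acyltransferase PORCN in the endoplasmic reticulum, carried to the surface by WLS and bound by frizzled receptors with the co-receptors LRP5 and LRP6. Without a ligand, a destruction complex of APC, AXIN and GSK3B marks beta-catenin for degradation. With a ligand, beta-catenin accumulates and joins the DNA-binding factors TCF7, TCF7L1, TCF7L2 and LEF1. R-spondins, through LGR receptors, keep ZNRF3 and RNF43 from removing frizzled receptors, whereas SFRP, DKK and WIF1 proteins act outside the cell as inhibitors. In the biliary and liver epithelium the pathway is known for roles in development, regeneration and tumours.

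Each library held between 33106564 and 36744521 fragments, and levels are given in FPKM (fragments scaled by transcript length and by the library's total), a scale on which genes can be compared with each other. Of 12 markers of the biliary epithelium, 9 in oeNC and 10 in oeSTUB1 had a mean of at least 1 FPKM. Their summed level ranged from 7.55e+03 to 8.14e+03 FPKM in oeNC and from 4.82e+03 to 6.38e+03 FPKM in oeSTUB1. The sum of 11 listed fibroblast markers was 18.7 to 21.7 FPKM in oeNC and 16.3 to 20.1 FPKM in oeSTUB1, most of it FBLN1, with DCN at 0 in the oeNC libraries. The leukocyte list summed to 33.6 to 36.8 FPKM and 27.4 to 28.3 FPKM, the hepatocyte list to 200 to 202 FPKM and 96.7 to 127 FPKM, and the endothelial list to 0.662 to 0.698 FPKM and 1.3 to 1.34 FPKM. The part of these shifts in the results below was not tested. All libraries came from the TFK1 line, so the sums are levels in its cells and do not count cells of other kinds. In bulk RNA, fewer cells with a transcript and less of it per cell cannot be told apart.

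The library oeSTUB1 replicate 2 stood apart by transcript length. Across 11375 genes with a mean of 1 FPKM or more, the Spearman correlation of its deviation from the mean of the libraries with gene length was -0.613, against 0.119 to 0.369 in the other libraries. Counts of called genes without this library are given beside those from all libraries. STUB1 itself was at 32.9, 33.0 and 30.9 FPKM in oeNC and at 61.4, 75 and 61.9 FPKM in oeSTUB1. All oeSTUB1 libraries lay above all oeNC libraries, with a log2 fold change of 1.03 ± 0.10 (SE, adjusted p = 0.00064 by limma). JMJD8 overlaps STUB1 on the opposite strand, with means of 30.3 FPKM in oeNC and 36.5 FPKM in oeSTUB1. Reads from their overlap cannot be told apart if counting ignored strand.

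The filter on low levels, a mean of 0.1 FPKM over the libraries, left 41 members for the test, and 12 were below it. With limma on log2(FPKM + 0.1), adjusted over all 15353 genes tested, 10 of the 41 members (24.4%) passed an adjusted p of 0.05. Of all genes tested, 13.6% passed. Higher in oeSTUB1 were 4 members (PORCN, WNT7B, FZD2 and SFRP1), beside 7.01% of all genes. Lower were 6 (FZD5, FZD8, SFRP4, SFRP5, RSPO3 and LEF1), beside 6.59% of all genes. Past an absolute log2 fold change of 1 were 4 members (PORCN, SFRP1, LEF1 and SFRP5), beside 5.2% of all genes. The oeNC and oeSTUB1 libraries did not overlap for 18 members (43.9%), 6 higher and 12 lower, beside 38.8% of all genes, which is near that background. The median log2 fold change was -0.15 over the tested members and 0.02 over all genes tested. Without oeSTUB1 replicate 2, 7 members were higher and 10 lower, and SFRP4 joined the others past the fold minimum to make 5. The counts over all genes rose as well in that fit, to 14.8% higher, 12% lower and 5.47% past the fold minimum.

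**Figure D1:**
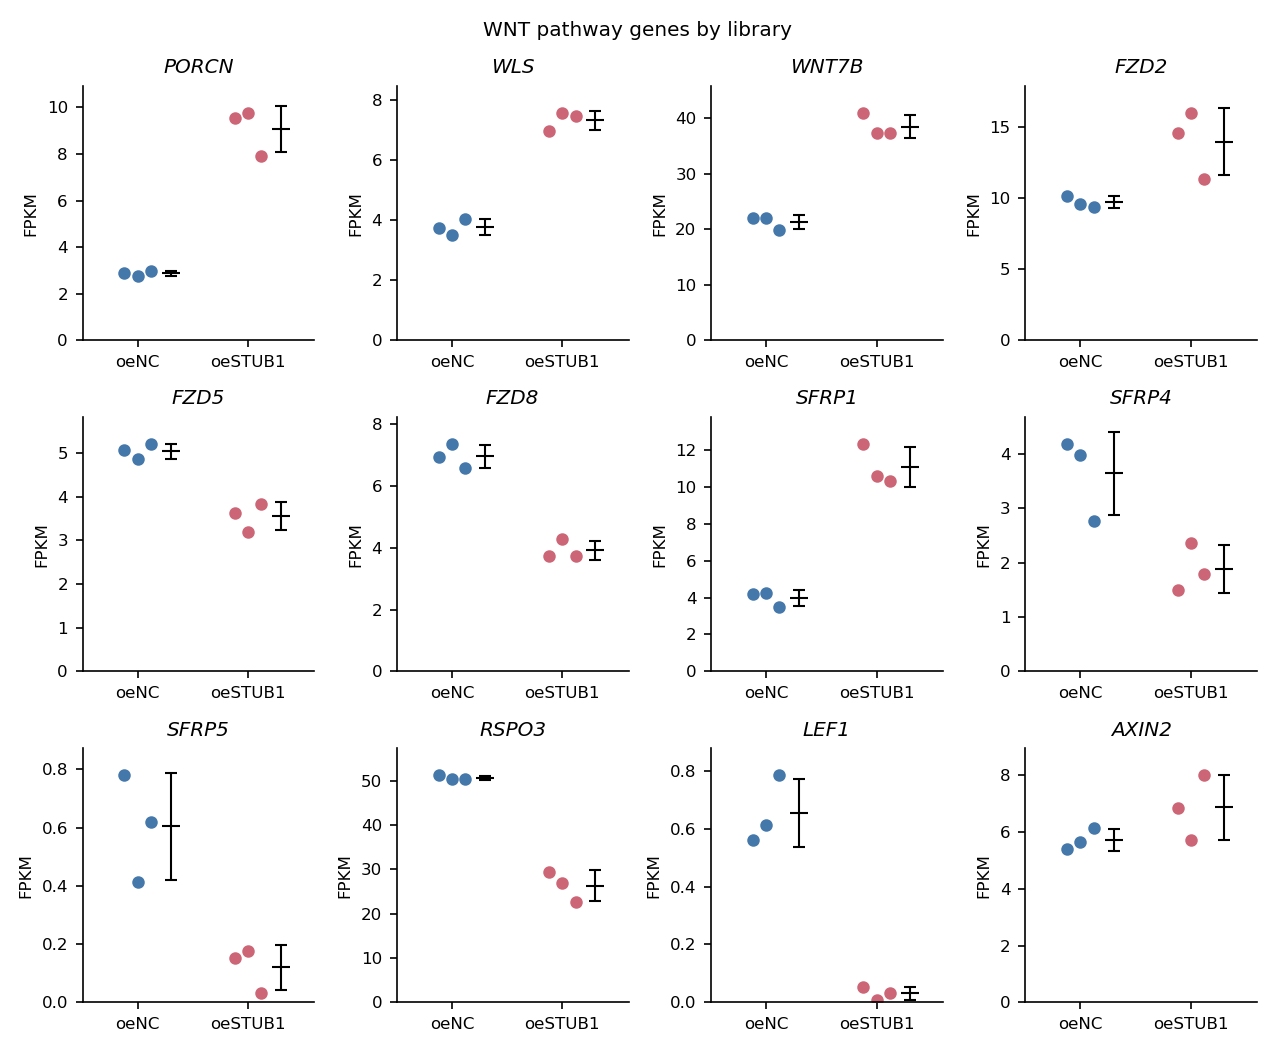
Level in FPKM (vertical axes, from 0) of the 10 members that passed the test and of WLS and AXIN2, in the 3 oeNC (blue) and 3 oeSTUB1 (red) libraries. Points are libraries, and bars are the mean ± SD of the group. The groups do not overlap in any panel but that of AXIN2, which did not pass.

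The DNA just upstream of members that changed is shown so that the genes can be located and their CpG content compared, since DNA methylation falls on CpG dinucleotides. Methylation was not measured in these libraries. Promoter sequence came from RefSeq (GRCh38.p14), and is printed where the RefSeq start lay within 100 bases of the outermost start of the gene in GENCODE 29 (GRCh38), cut at the more upstream of both starts. Members that changed and met this were PORCN, FZD8, SFRP5 and RSPO3. FZD5, LEF1 and SFRP4 did not meet it, and for WNT7B, SFRP1 and FZD2 no RefSeq promoter sequence was available here. The lines read 5′ to 3′ on the strand of the gene, with every CpG in capitals. The PORCN line is chrX:48508742-48508961 on the plus strand and has 25 CpG in 220 bases, and the RSPO3 line is chr6:127118421-127118603 on the plus strand and has 7 CpG in 183 bases. The FZD8 line is chr10:35642297-35642546 on the minus strand and has 24 CpG in 250 bases, and the SFRP5 line is chr10:97772000-97772249 on the minus strand and has 21 CpG in 250 bases.
PORCN: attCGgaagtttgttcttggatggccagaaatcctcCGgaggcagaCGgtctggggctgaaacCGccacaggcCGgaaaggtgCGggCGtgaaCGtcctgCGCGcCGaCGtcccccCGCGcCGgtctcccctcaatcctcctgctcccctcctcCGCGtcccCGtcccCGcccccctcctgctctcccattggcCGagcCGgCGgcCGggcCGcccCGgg
RSPO3: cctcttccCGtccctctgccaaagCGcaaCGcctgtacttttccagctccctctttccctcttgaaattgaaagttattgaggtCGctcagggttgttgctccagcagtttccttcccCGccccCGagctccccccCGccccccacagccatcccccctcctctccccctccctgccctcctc
FZD8: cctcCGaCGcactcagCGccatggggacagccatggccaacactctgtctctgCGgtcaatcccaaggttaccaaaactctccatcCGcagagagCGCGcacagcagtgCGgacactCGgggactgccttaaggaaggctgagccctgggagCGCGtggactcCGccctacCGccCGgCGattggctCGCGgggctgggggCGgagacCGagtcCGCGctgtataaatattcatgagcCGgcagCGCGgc
SFRP5: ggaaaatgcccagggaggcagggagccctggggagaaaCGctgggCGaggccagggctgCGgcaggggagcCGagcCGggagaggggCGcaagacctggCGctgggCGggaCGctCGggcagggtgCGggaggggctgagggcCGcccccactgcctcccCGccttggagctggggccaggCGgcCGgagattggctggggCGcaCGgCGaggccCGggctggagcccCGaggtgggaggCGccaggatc

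Over the full 250 bases upstream, PORCN had 30 CpG, FZD8 24, SFRP5 21 and RSPO3 8. The median over the promoters of 11980 tested genes was 21, with quartiles of 13 and 28. RSPO3 was thus below the lower quartile and PORCN above the upper one. The letters CTTTGAT or CTTTGAA, cores of the sequence that TCF factors bind, were searched on both strands. They were in none of these 4 windows, in 1 of 21 windows of tested members (4.76%, DKK1) and in 3.61% of the windows of all tested genes.

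Ligand processing and the ligands come first. PORCN, the enzyme that acylates WNT proteins, was at 2.90, 2.75 and 2.98 FPKM in oeNC and at 9.55, 9.75 and 7.92 FPKM in oeSTUB1. All oeSTUB1 libraries were far above all oeNC libraries, whose values lay close together. The mean rose 3.15-fold, from 2.88 ± 0.118 to 9.07 ± 1.00 FPKM (± SD over 3 libraries, as for all group means), and the log2 fold change was 1.62 ± 0.11 (SE, adjusted p = 0.00017 by limma). PORCN lies on chromosome X, 48508962 to 48520814, plus strand (GRCh38). The divergent transcript PORCN-DT, its neighbour on the genome, was at 0.318 and 0.316 FPKM (log2 fold change -0.02).

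WNT7B, a ligand of epithelia, was at 22.0, 22.0 and 19.8 FPKM in oeNC and at 40.9, 37.3 and 37.3 FPKM in oeSTUB1. It was the most abundant ligand in every library, and its groups were far apart for their spread. The mean rose 1.81-fold, from 21.3 ± 1.28 to 38.5 ± 2.08 FPKM, with a log2 fold change of 0.85 ± 0.08 (SE, adjusted p = 0.00065 by limma). The gene lies on chromosome 22, 45920362 to 45977129, minus strand.

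The summed level of the 16 listed ligands was 25.5 to 27.1 FPKM in the oeNC libraries and 42.1 to 46.1 FPKM in the oeSTUB1 libraries. WNT7B made up 77.5 to 82.7% of that sum in oeNC and 88.1 to 88.8% in oeSTUB1. The ligand repertoire was therefore narrow, with WNT7B and WNT3 alone at a mean of 1 FPKM or more. WNT3, a ligand of the beta-catenin branch, had means of 3.25 ± 0.540 FPKM in oeNC and 2.94 ± 0.156 FPKM in oeSTUB1 (log2 fold change -0.12, adjusted p = 0.58), and its groups overlapped.

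Of 9 ligands tested, WNT7B alone passed. The other 8 had log2 fold changes from -0.57 (WNT6) to 0.41 (WNT9A) and adjusted p of 0.22 to 0.74 by limma. Their means over the libraries were at most 0.546 FPKM besides WNT3. WNT6 lies on chromosome 2, whose tested genes had a median log2 fold change of -0.21. WNT5A and WNT5B, ligands of the beta-catenin-independent branch, were at 0.196 and 0.113 FPKM in oeNC and 0.291 and 0.152 FPKM in oeSTUB1. WNT9A reached a log2 fold change of 0.59 (adjusted p = 0.043) without oeSTUB1 replicate 2.

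The remaining 7 ligands were below the filter. WNT2, WNT7A and WNT10A had at most 3 fragments in every library. WNT3A had 0, 1 and 0 fragments in oeNC and 1, 5 and 3 in oeSTUB1. WNT8B had 4, 0 and 3 fragments in oeNC and 0, 0 and 1 in oeSTUB1, and WNT9B had 1, 4 and 1 and then 3, 0 and 2. These numbers are too low for a difference to be detectable at this depth. WNT11 had means of 0.0792 and 0.106 FPKM, with 6 to 9 fragments in an oeNC library and 8 to 11 in an oeSTUB1 library.

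**Figure D2:**
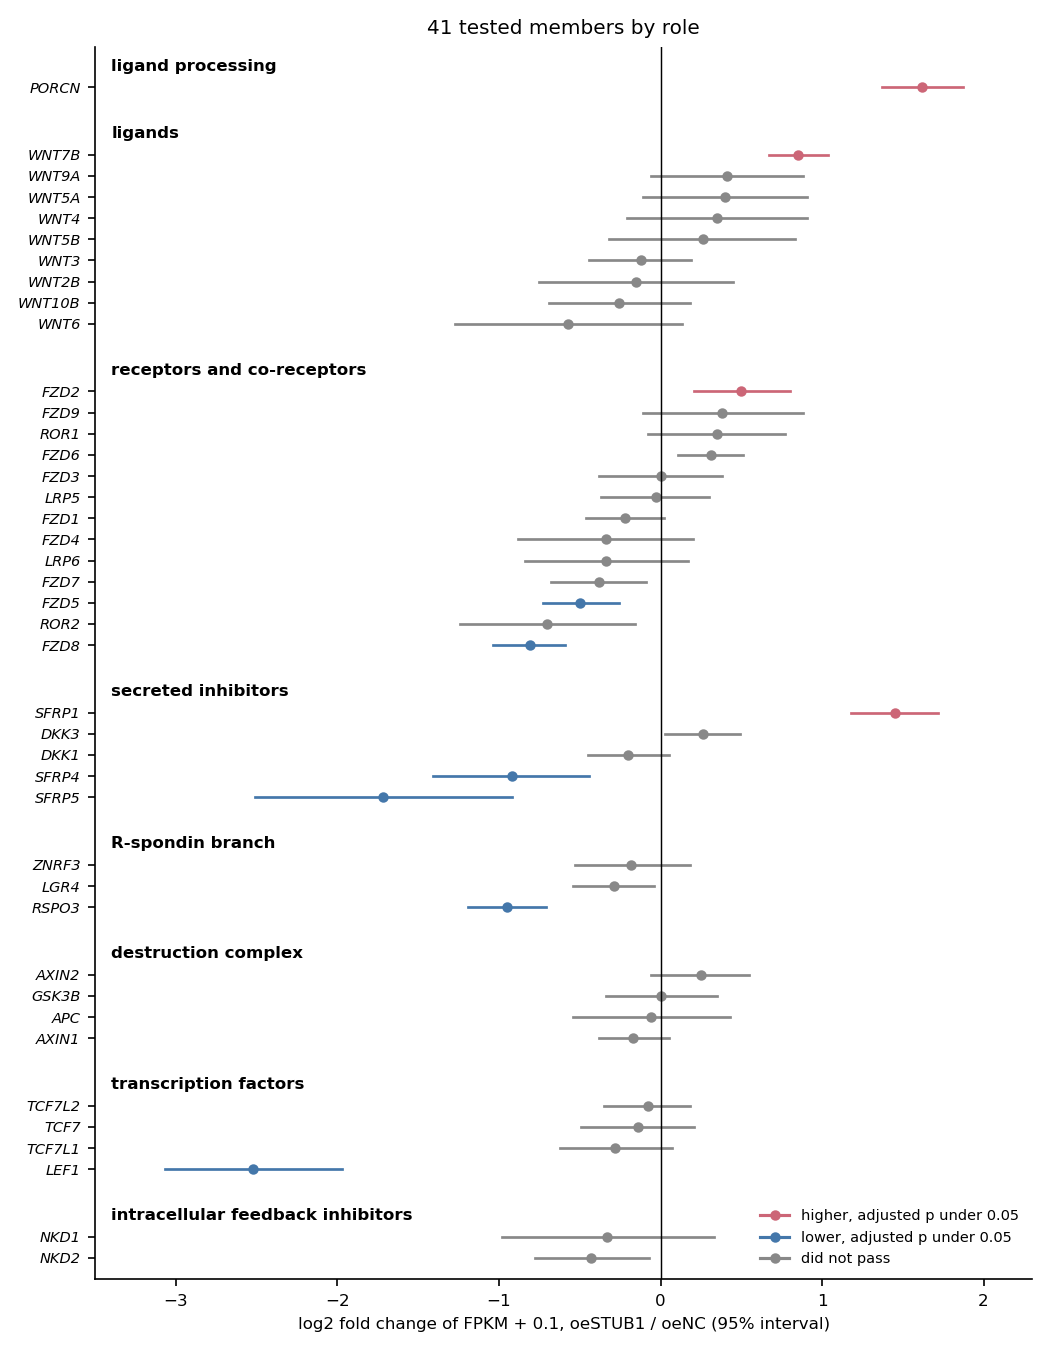
Log2 fold change of FPKM + 0.1, oeSTUB1 over oeNC (horizontal axis), for the 41 tested members grouped by role, with 95% intervals that are not adjusted for the number of genes. The 4 members in red were higher and the 6 in blue lower at an adjusted p under 0.05, and LEF1 lies farthest from 0 at -2.52.

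Among the 13 tested receptors and co-receptors, FZD2 rose and FZD5 and FZD8 fell. The 10 listed FZD genes summed to 48.4 to 49.0 FPKM in oeNC and to 47.6 to 49.3 FPKM in oeSTUB1. As a description, with no test of shares, FZD2 and FZD6 took larger shares of that sum in every oeSTUB1 library than in any oeNC library, and FZD1, FZD5, FZD7 and FZD8 smaller ones. The shares of FZD3, FZD4 and FZD9 overlapped. The share of FZD2 went from 19.4 to 20.8% in oeNC to 24.0 to 32.7% in oeSTUB1, and that of FZD6 from 22.7 to 23.9% to 26.1 to 30.6%. The top FZD2 share, 32.7%, was that of oeSTUB1 replicate 2, which stood apart by transcript length. The FZD genes differ in length, and the part of that length pattern in the shares was not tested. The share of FZD8 went from 13.6 to 15.2% to 7.61 to 8.70%, and that of FZD5 from 10 to 10.7% to 6.54 to 8.06%. The share of FZD7 went from 16.3 to 19% to 11.3 to 16%, and that of FZD1 from 6.4 to 7.4% to 5.6 to 6.17%. Of these 6 receptors, FZD1, FZD6 and FZD7 did not pass the test on their levels.

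**Figure D3:**
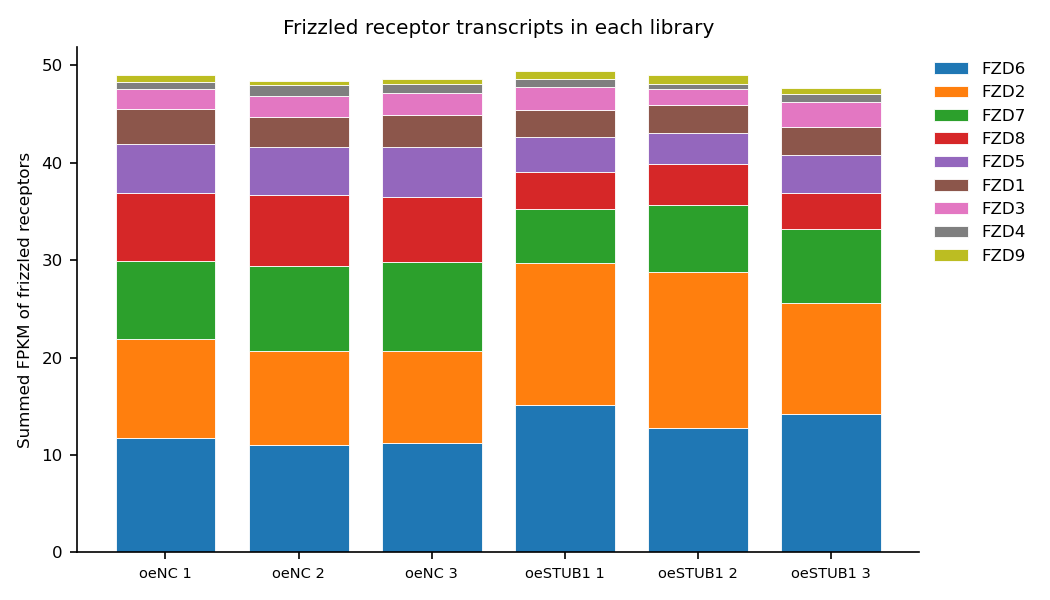
Summed FPKM of the frizzled receptor genes (vertical axis) in each of the 6 libraries, with each colour 1 gene, ordered by mean level. FZD10, with 1 fragment in all, is not drawn. The columns have like heights, between 47.6 and 49.3 FPKM, while the FZD8, FZD5, FZD7 and FZD1 segments are shorter and the FZD2 and FZD6 segments longer in oeSTUB1.

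FZD8 was at 6.94, 7.35 and 6.59 FPKM in oeNC and at 3.75, 4.27 and 3.74 FPKM in oeSTUB1. The groups were clear of each other. The mean fell from 6.96 ± 0.380 to 3.92 ± 0.299 FPKM (1.78-fold lower), with a log2 fold change of -0.81 ± 0.10 (SE, adjusted p = 0.0018 by limma). FZD8 lies on chromosome 10, 35638249 to 35642278, minus strand.

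FZD5, which is close to FZD8 in sequence and binds similar ligands, was at 5.06, 4.86 and 5.20 FPKM in oeNC and at 3.62, 3.2 and 3.83 FPKM in oeSTUB1. It fell in the same direction by a smaller amount, with a log2 fold change of -0.50 ± 0.10 (SE, adjusted p = 0.018 by limma). The gene lies on chromosome 2, 207762586 to 207769563, minus strand. The median of the 1031 tested genes of chromosome 2 was -0.21, and the neighbour CCNYL1 fell as well (log2 fold change -0.99, adjusted p = 0.00053). The part of this in the FZD5 value was not tested. Leaving out any oeNC library ended the call of FZD5, with adjusted p of 0.071 to 0.085.

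FZD2, a receptor used by WNT5A among others, was at 10.2, 9.63 and 9.43 FPKM in oeNC and at 14.6, 16 and 11.4 FPKM in oeSTUB1. The groups did not overlap, but oeSTUB1 replicate 3 lay near oeNC. The log2 fold change was 0.50 ± 0.13 (SE, adjusted p = 0.039 by limma). The call was lost in 7 of 16 alternative analyses, with adjusted p of 0.051 to 0.14, among them each one without an oeNC library and the one without oeSTUB1 replicate 1. FZD2 lies on chromosome 17, 44557459 to 44559570, plus strand.

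The other 10 tested receptors and co-receptors did not pass. The receptor FZD6 had means of 11.3 ± 0.386 FPKM in oeNC and 14.0 ± 1.15 FPKM in oeSTUB1 (log2 fold change 0.31, adjusted p = 0.056), without overlap, and passed without oeSTUB1 replicate 2 (0.37, adjusted p = 0.0046). FZD7, on chromosome 2 like FZD5, had means of 8.65 ± 0.613 and 6.65 ± 1.02 FPKM (log2 fold change -0.38, adjusted p = 0.087), also without overlap. FZD1, FZD3, FZD4 and FZD9 had means over the libraries of 0.674 to 3.08 FPKM and log2 fold changes of -0.34 to 0.38. FZD4 lies opposite PRSS23, with means of 83.3 and 133 FPKM, and reads of this pair cannot be told apart if counting ignored strand.

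The co-receptor LRP5 had the highest mean of this role, at 26.8, 27.3 and 29 FPKM in oeNC and at 27.9, 21.6 and 32.9 FPKM in oeSTUB1. Its oeSTUB1 libraries spread around the oeNC values (log2 fold change -0.03, 95% interval -0.37 to 0.30, adjusted p = 0.90). LRP6 had means of 17.2 ± 1.07 and 14.1 ± 4.30 FPKM (adjusted p = 0.34), and oeSTUB1 replicate 2 was the low library at 9.14 FPKM. The tyrosine kinase receptors ROR1 and ROR2, of the WNT5A branch, were low. ROR1 was at 0.799 and 1.05 FPKM, and ROR2 at 0.190 and 0.0774 FPKM (log2 fold change -0.70, adjusted p = 0.089), with 40 to 60 fragments in oeNC and 15 to 24 in oeSTUB1. The ROR2 groups did not overlap, and it passed with limma-voom on fragments (-1.27, adjusted p = 0.028), without a trend (adjusted p = 0.021) and without a filter (adjusted p = 0.050). FZD10 had at most 1 fragment in any library.

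Among the 5 tested secreted inhibitors, 1 rose and 2 fell, all of them SFRP genes. SFRP1, which binds WNT ligands through a frizzled-like domain, was at 4.18, 4.27 and 3.48 FPKM in oeNC and at 12.3, 10.6 and 10.3 FPKM in oeSTUB1. All oeSTUB1 libraries lay far above oeNC. The mean rose 2.78-fold, from 3.98 ± 0.437 to 11.1 ± 1.08 FPKM, with a log2 fold change of 1.45 ± 0.12 (SE, adjusted p = 0.00033 by limma). SFRP1 lies on chromosome 8, 41261958 to 41309497, minus strand.

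SFRP4 and SFRP5 moved the other way. SFRP4 was at 4.18, 3.99 and 2.77 FPKM in oeNC and at 1.49, 2.36 and 1.79 FPKM in oeSTUB1. The lowest oeNC library was still above the highest oeSTUB1 library. The log2 fold change was -0.92 ± 0.21 (SE, adjusted p = 0.026 by limma), and the call was lost in 5 of 16 alternative analyses, 4 of which left out a library (oeNC replicate 1 or 2, oeSTUB1 replicate 1 or 3), with adjusted p of 0.058 to 0.10. SFRP4 lies on chromosome 7, 37905932 to 38025695, minus strand.

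SFRP5 was at 0.780, 0.414 and 0.621 FPKM in oeNC and at 0.154, 0.176 and 0.0311 FPKM in oeSTUB1. These levels rest on 51, 27 and 43 fragments and on 10, 11 and 2 fragments. Scaled by the library totals, summed fragments were 5.04-fold lower in oeSTUB1. The exact 95% interval of 3.21 to 8.26 covers counting error only. The log2 fold change was -1.72 ± 0.34 (SE, adjusted p = 0.016 by limma), and the adjusted p was 0.070 without oeNC replicate 1 and 0.066 without oeNC replicate 3. SFRP5 lies on chromosome 10, 97766751 to 97771952, minus strand.

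The summed SFRP level was 6.87 to 9.14 FPKM in oeNC and 12.1 to 13.9 FPKM in oeSTUB1. SFRP1 was 45.7 to 50.6% of it in oeNC and 80.7 to 88.2% in oeSTUB1. SFRP2 had at most 1 fragment in any library. Thus SFRP1 and SFRP4 were at like levels in oeNC, and SFRP1 was the leading SFRP transcript in oeSTUB1.

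DKK1, a secreted antagonist of LRP5 and LRP6, was the most abundant member of all, at 382, 400 and 422 FPKM in oeNC and at 307, 383 and 360 FPKM in oeSTUB1. The groups overlapped by 1 library. The means were 401 ± 20 and 350 ± 39.3 FPKM, with a log2 fold change of -0.20 ± 0.11 (SE, adjusted p = 0.26 by limma). It passed without oeSTUB1 replicate 2 (-0.27, adjusted p = 0.036). DKK1 made up 98.9 to 99.3% of the DKK sum in the libraries. DKK3, a divergent member of the family, had means of 2.88 ± 0.0448 and 3.48 ± 0.245 FPKM (log2 fold change 0.26, adjusted p = 0.13). DKK2 and DKK4 had at most 1 fragment in any library.

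WIF1, an inhibitor that binds WNT proteins directly, had 6, 16 and 8 fragments in oeNC and 0, 1 and 2 in oeSTUB1. It was below the filter and so was not tested in the main analysis. The groups did not overlap.

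In the R-spondin branch, RSPO3 fell and LGR4 and ZNRF3 did not pass. RSPO3, a secreted agonist that amplifies WNT signals, was at 51.2, 50.3 and 50.3 FPKM in oeNC and at 29.4, 27.0 and 22.6 FPKM in oeSTUB1. Every oeSTUB1 library was well below oeNC, whose libraries lay close together. The mean fell from 50.6 ± 0.517 to 26.3 ± 3.45 FPKM (1.92-fold lower), with a log2 fold change of -0.95 ± 0.10 (SE, adjusted p = 0.0012 by limma). RSPO3 lies on chromosome 6, 127118604 to 127197765, plus strand, and its neighbours CENPW and RNF146 had log2 fold changes of 0.01 and -0.06, neither past the test.

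LGR4, an R-spondin receptor, was at 87.1, 87.5 and 89.1 FPKM in oeNC and at 74.5, 61.7 and 81.4 FPKM in oeSTUB1. The groups did not overlap, but the log2 fold change of -0.29 ± 0.11 (SE) had an adjusted p of 0.12 by limma. Leaving out oeSTUB1 replicate 2, its lowest library, gave -0.17 (adjusted p = 0.037). ZNRF3, the ubiquitin ligase that removes frizzled receptors, had means of 12.4 ± 1.10 and 11.1 ± 2.27 FPKM (adjusted p = 0.49). Together the 3 genes summed to 150 to 153 FPKM in oeNC and to 97.3 to 117 FPKM in oeSTUB1.

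None of the 4 destruction complex genes passed. GSK3B, the kinase that phosphorylates beta-catenin, had the highest mean, at 10.7, 11.5 and 11.2 FPKM in oeNC and at 12.9, 8.66 and 12.4 FPKM in oeSTUB1. Its oeSTUB1 libraries lay on both sides of oeNC (log2 fold change 0.00, 95% interval -0.34 to 0.35). AXIN2, a scaffold and a feedback target of the pathway, had means of 5.72 ± 0.381 and 6.86 ± 1.13 FPKM (log2 fold change 0.25, adjusted p = 0.25). Its value without oeSTUB1 replicate 2 was 0.37 (adjusted p = 0.025). AXIN1 and APC had log2 fold changes of -0.17 and -0.06 (adjusted p of 0.27 and 0.89).

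LEF1 had the largest change of the tested members. This factor was at 0.559, 0.614 and 0.784 FPKM in oeNC and at 0.0547, 0.00814 and 0.0315 FPKM in oeSTUB1. The underlying fragments were 72, 79 and 107 in oeNC and 7, 1 and 4 in oeSTUB1, so that every oeSTUB1 library was near the limit of detection. Scaled by the library totals, summed fragments were 20.6-fold lower, with an exact 95% interval of 11.6 to 40.4 for counting error. The log2 fold change on the log2(FPKM + 0.1) scale, which understates the change of low genes, was -2.52 ± 0.24 (SE, adjusted p = 0.00063 by limma). It was -0.68 with a pseudocount of 1 and -4.17 with one of 0.01. LEF1 lies on chromosome 4, 108047545 to 108168956, minus strand, and LEF1-AS1, which overlaps it on the opposite strand, had means of 0.0142 and 0 FPKM. HADH and RPL34, its neighbours, had log2 fold changes of 0.24 and 0.00, neither past the test.

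The other factors of the family were at higher levels and did not pass. TCF7L2, the most abundant, was at 5.79, 6.03 and 7 FPKM in oeNC and at 6.44, 5.33 and 5.95 FPKM in oeSTUB1, and its groups overlapped (log2 fold change -0.08, adjusted p = 0.66). TCF7L1, mostly a repressor, had means of 3.05 ± 0.126 and 2.53 ± 0.498 FPKM (log2 fold change -0.28, adjusted p = 0.26). It passed when oeSTUB1 replicate 2 was left out (-0.42, adjusted p = 0.023 by limma). TCF7L1 lies on chromosome 2, whose 1031 tested genes had a median of -0.21, and the part of this in its value was not tested. TCF7 had means of 1.08 ± 0.0404 and 0.977 ± 0.150 FPKM and shares its locus with the opposite-strand gene SKP1, whose reads cannot be told apart if counting ignored strand. LEF1 held a small part of the summed level of these 4 genes already in oeNC, where the sum was 10.4 to 11.9 FPKM, against 9.15 to 9.97 FPKM in oeSTUB1.

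The intracellular feedback inhibitors NKD1 and NKD2, which bind Dishevelled proteins, did not pass. NKD1 was at 2.1, 2.3 and 2.65 FPKM in oeNC and at 2.11, 1.11 and 2.65 FPKM in oeSTUB1, where replicate 2 was the low library (log2 fold change -0.33, adjusted p = 0.48). NKD2 had means of 1.93 ± 0.251 and 1.41 ± 0.185 FPKM without overlap (log2 fold change -0.43, adjusted p = 0.11), and passed without oeSTUB1 replicate 2 (-0.50, adjusted p = 0.040).

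Other genes of the pathway were taken from 4 lists, whose counts are set beside the 13.6% of all genes that passed. Of secretion and extracellular regulators, 1 of 11 tested passed, higher, which is not above that share. It was WLS, the carrier of lipid-modified WNT proteins, at 3.74, 3.52 and 4.06 FPKM in oeNC and 6.98, 7.57 and 7.47 FPKM in oeSTUB1. Both genes dedicated to ligand maturation and export, PORCN and WLS, were thus higher, the latter with a log2 fold change of 0.94 ± 0.09 (SE, adjusted p = 0.00081 by limma). The median of the list was -0.41, against 0.02 over all genes. The R-spondin receptor LGR5 was below the filter, with 0, 1 and 1 fragments in oeNC and 25, 4 and 13 in oeSTUB1. The oeSTUB1 libraries differed widely among themselves, and LGR5 was not tested. Leaving out oeSTUB1 replicate 2 gave 2 higher and 3 lower genes in this list, beside 14.8% and 12% of all genes in that fit.

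Of 33 signal transduction genes tested, 4 were higher and 2 lower (13.6% of all genes passed), and the median was -0.01. Leaving out oeSTUB1 replicate 2 gave 5 higher and 3 lower, beside 14.8% and 12% of all genes in that fit. CTNNB1, which encodes beta-catenin, had means of 64.4 ± 2.77 and 65.3 ± 0.646 FPKM (log2 fold change 0.02, 95% interval -0.14 to 0.19). DACT2, an antagonist that binds Dishevelled, was at 6.45, 6.59 and 9.34 FPKM in oeNC and 2.24, 2.88 and 3.87 FPKM in oeSTUB1 (log2 fold change -1.30 ± 0.22, adjusted p = 0.0074). The TLE co-repressors TLE1 and TLE4 rose, by log2 fold changes of 0.49 and 0.55 (adjusted p of 0.0053 and 0.040). The beta-catenin cofactor PYGO1 rose (log2 fold change 0.65, adjusted p = 0.029), as did GSK3A (0.31, adjusted p = 0.033), and DVL2 fell (-0.38, adjusted p = 0.033).

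Of 26 genes of the planar polarity and calcium branch, 1 was higher and 1 lower, a share below the 13.6% of all genes, with a median of 0.01. PRICKLE2, a polarity protein, rose from 2.32 ± 0.220 to 4.32 ± 1.08 FPKM (log2 fold change 0.84, adjusted p = 0.024 by limma). PTK7, a polarity receptor, fell from 4.02 ± 0.641 to 2.64 ± 0.183 FPKM (log2 fold change -0.58, adjusted p = 0.030 by limma). Without oeSTUB1 replicate 2, 5 genes of the list were higher and 2 lower, beside 14.8% and 12% of all genes.

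Of 27 tested transcriptional targets of beta-catenin and TCF factors, 4 were higher and 3 lower, beside 7.01% and 6.59% of all genes, and the median was -0.16. EPHB2, a receptor of crypt epithelium, rose from 3.15 ± 0.436 to 7.35 ± 1.53 FPKM (log2 fold change 1.19, adjusted p = 0.0036 by limma). GLUL, glutamine synthetase, rose from 0.204 ± 0.0928 to 0.498 ± 0.0518 FPKM (log2 fold change 1.01, adjusted p = 0.034 by limma). The more abundant CD44 rose from 43.4 ± 3.21 to 67.2 ± 8.34 FPKM (log2 fold change 0.62, adjusted p = 0.0089 by limma). MMP7 rose from 29.2 ± 1.55 to 43.8 ± 6.91 FPKM (log2 fold change 0.57, adjusted p = 0.021 by limma). The intestinal factor CDX2 fell from 0.309 ± 0.113 to 0.0219 ± 0.0157 FPKM (log2 fold change -1.71, adjusted p = 0.0082 by limma), with at most 6 fragments in an oeSTUB1 library. ID2 and BMP4, of the BMP pathway, had log2 fold changes of -0.86 and -0.83 (adjusted p of 0.012 and 0.0074).

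MYC and CCND1, widely used readouts of the pathway, did not pass. MYC had means of 31.5 ± 6.37 and 25.7 ± 0.374 FPKM (log2 fold change -0.27, adjusted p = 0.21), and CCND1, which encodes cyclin D1, had 66.6 ± 4.42 and 74.3 ± 6.22 FPKM (log2 fold change 0.15, adjusted p = 0.31). Without oeSTUB1 replicate 2, 6 targets were higher and 4 lower, beside 14.8% and 12% of all genes.

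**Figure D4:**
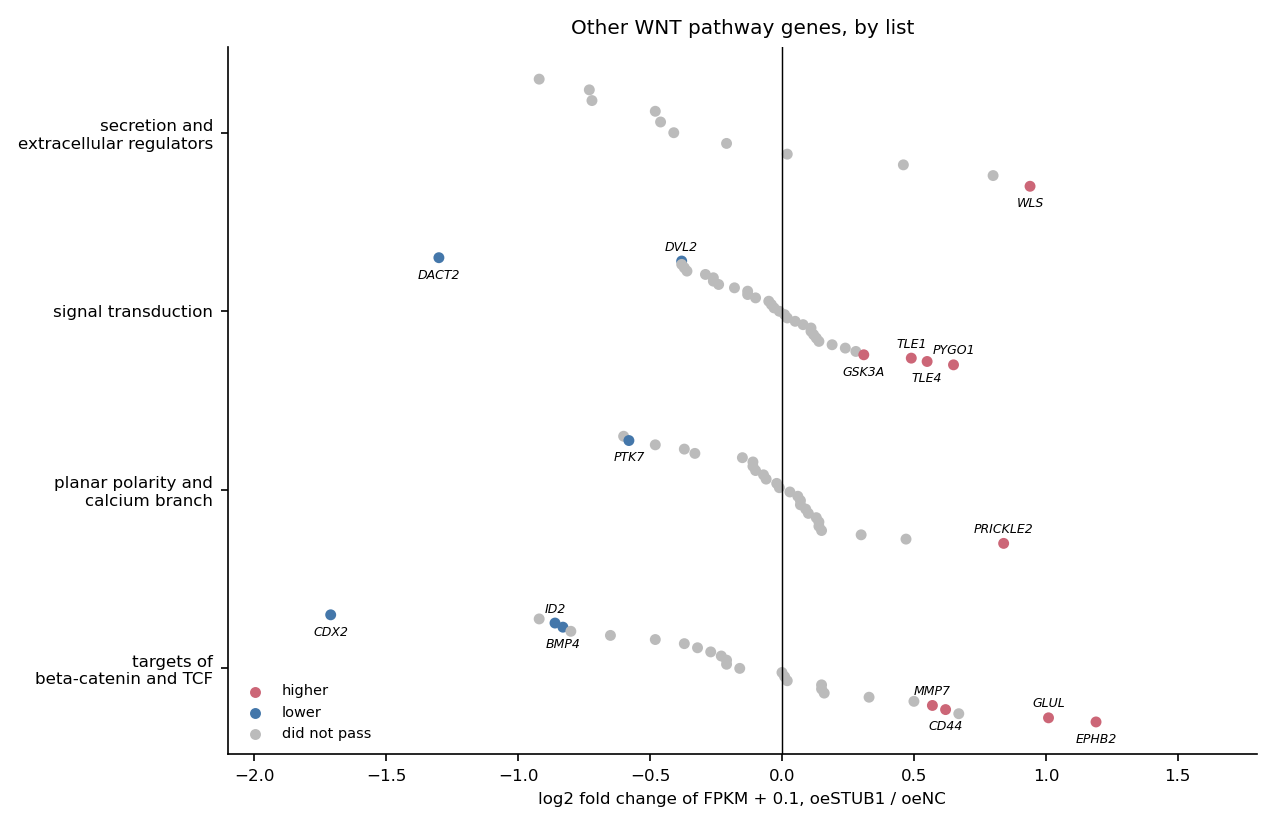
Log2 fold change of FPKM + 0.1, oeSTUB1 over oeNC (horizontal axis), of each tested gene in the 4 further lists (vertical axis), 1 point a gene, sorted within each list. Genes in red were higher and genes in blue lower at an adjusted p under 0.05, and they are named. The targets hold 4 red and 3 blue points, from CDX2 at -1.71 to EPHB2 at 1.19.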

How the data were processed

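Total RNA of 6 TFK1 samples was sequenced after TRIzol extraction and VAHTS Universal V6 library preparation. The submitters' processing notes name fastp 0.20.1, HISAT2 2.1.0, HTSeq 0.11.2, R 3.2.0, DESeq2 1.22.2 and build GRCh38.p13. The strand setting of the counting is not given in the sources used here. The authors deposited FPKM per gene and library. For 23569 of 23569 genes these were whole fragments scaled by 1 length and 1 library total, to within 4.9e-06 FPKM. Recovered totals were 33106564 to 36744521 fragments. Fragment numbers of sparse genes could share a divisor that recovery cannot see.

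Groups and replicate numbers came from the sample titles. Genes whose mean reached 0.1 FPKM were tested with limma 3.58.1 (R 4.3.3, eBayes with trend, two-sided) on log2(FPKM + 0.1), with Benjamini-Hochberg adjustment over all 15353. The members and lists were chosen with earlier results of these data known. Values in full are given for STUB1, members past the test, the most abundant member of each role and members with at most 3 fragments in each library of a group. LGR5 and other named members were chosen after their values were seen. From each further list, genes past the test are named, at most 5 by size, besides those named after their values were seen. Counting intervals are exact at 95%. Replicate pairs differed by more than sampling noise (chi-square per degree of freedom 3.37 to 76.7), so none was treated as a duplicate, which does not show that they were separate cultures. The largest values involve oeSTUB1 replicate 2. The fits and the recovery were also run on simulated data, which had no length pattern and changed only genes above a set fragment number. That run does not cover changes in the sparsest genes or a library like oeSTUB1 replicate 2. Positions are from GENCODE 29 (GRCh38). Alternatives were other pseudocounts, filters, scalings, limma-voom on fragments, a replicate block, a length correction chosen after seeing the data, and leaving out each library.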

Additional observations from a re-analysis of the deposited data

How the results depend on the processing

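PORCN, SFRP1, WNT7B, RSPO3 and FZD8 kept their direction and passed in all 16 alternatives, and LEF1 in the 15 that tested it. LEF1 ranged from -4.46 to -0.68 and SFRP5 from -2.50 to -0.51, the smaller with a pseudocount of 1 and the larger with limma-voom. WIF1 passed without a filter. The members past the fold minimum numbered 2 with a pseudocount of 1 and 2 with a filter of 1 FPKM, which leaves out LEF1 and SFRP5. The length correction gave 5 higher and 10 lower members, while the counts over all genes rose as well, from 1076 to 1678 higher and from 1012 to 1645 lower. For the secretion list, 2 genes passed with a pseudocount of 1, median-ratio scaling, quantile normalization and limma-voom alike, and 4 with the length correction. For signal transduction, 3 passed without a trend. For the polarity list, 4, 0, 4, 5 and 6 passed with a pseudocount of 1, no filter, quantile normalization, limma-voom and the length correction. The cause was not tested.

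Leaving out 1 library gave 3 to 7 higher and 3 to 10 lower members, 3 to 5 past the fold minimum, and 1 to 5, 2 to 8, 0 to 7 and 4 to 10 genes of the secretion, transduction, polarity and target lists. The high ends were without oeSTUB1 replicate 2, the low ends of the member counts included the fit without oeNC replicate 1. Over all genes, these fits gave 474 to 2273 higher and 453 to 1845 lower, against 1076 and 1012 with all libraries. All genes past the fold minimum numbered 240 with a pseudocount of 1 and 384 with a filter of 1 FPKM, against 798, and the length correction gave 1678 higher and 1645 lower.

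With the replicate block, 4 members were higher, 6 lower and 4 past the fold minimum, and 741 and 747 of all genes. Same-numbered libraries did not deviate together (correlations -0.0491, -0.0521 and 0.0617, with 2 libraries closest to their own number). With few libraries and the length pattern of oeSTUB1 replicate 2, this cannot decide whether same-numbered samples were handled together, and the labels do not say.

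Directions turned for 6 members, none of which passed. APC was at 0.05 with the length correction and at -0.20 to 0.21 without 1 library. FZD3 was at 0.00 with a pseudocount of 1, 0.03 with quantile normalization, 0.12 with the length correction and -0.12 to 0.17 without 1 library. GSK3B was at -0.02 with median-ratio scaling and with quantile normalization, and at -0.10 to 0.18 without 1 library. Without 1 library, LRP5 was at -0.17 to 0.13, NKD1 at -0.58 to 0.02 and WNT2B at -0.20 to 0.03.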

Other observations

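Neighbours, here and above, are the nearest tested genes on either side in RefSeq order, so that untested genes can lie between. Those of the members that changed were mostly not past the test. Among these neighbours of the 10 members, CCNYL1 beside FZD5 alone passed, falling from 46.8 to 23.6 FPKM. Of all genes tested, 13.6% passed. EBP, next to PORCN, had a log2 fold change of 0.45 (adjusted p = 0.097 by limma), and GOLGA7, next to SFRP1, had 0.25 (adjusted p = 0.088). ATXN10 and PRR34-AS1, which flank WNT7B, had 0.18 and 0.57 (adjusted p of 0.31 and 0.079). ELMO1 and EPDR1, before and after SFRP4 in RefSeq order, had -0.62 and -0.27 (adjusted p of 0.078 and 0.076 by limma). The RefSeq start of SFRP4, 37916817, lies inside the GENCODE span given above, so EPDR1 need not lie outside that span. PLEKHM3, on the other side of FZD5, had -0.74 (adjusted p = 0.091 by limma). GPATCH8 and MEIOC, which flank FZD2, moved against its rise, with -0.34 and -0.44 (adjusted p of 0.38 and 0.063 by limma).

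Extracellular inhibitors outside the member list were also measured. KREMEN1, a DKK1 receptor, had means of 3.42 ± 0.112 FPKM in oeNC and 2.1 ± 0.599 FPKM in oeSTUB1, without overlap (log2 fold change -0.72, adjusted p = 0.051 by limma). NOTUM, the enzyme that removes the lipid from WNT proteins, had 0.201 ± 0.109 and 0.0530 ± 0.0129 FPKM, without overlap (log2 fold change -0.92, adjusted p = 0.093). TRABD2A, a protease that inactivates WNT proteins, had 0.245 ± 0.0546 and 0.516 ± 0.181 FPKM, without overlap and in the other direction (log2 fold change 0.80, adjusted p = 0.092). None of these 3 passed the threshold, and they were named after their values were seen.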
